A study of Mus musculus with 16 samples.

Results

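Of the 15779 H3K4me3 peaks called in vehicle-treated (Veh) CD8+ T cells, 4009 (25.4%, 95% Wilson interval 24.7 to 26.1%) lay more than 2500 bp from every curated RefSeq transcription start site (TSS) of the mouse genome build mm10 (GRCm38). These distal H3K4me3 peaks were chosen by their presence in the Veh H3K4me3 list and by their distance from 31603 curated start sites, so their H3K4me3 and their position are given as a description. The remaining 11770 peaks are called TSS-proximal below. The series held chromatin immunoprecipitation sequencing (ChIP-seq) of CD8+ T cells from the spleens of OT1 mice, which bear a transgenic T cell receptor that sees a peptide of ovalbumin. Anti-CD3 and anti-CD28 activated the cells over 48 h, and IL-2 expanded them over the next 3 days. Throughout, the cells received 0.5 µM GSK2879552 (GSK), which blocks LSD1 irreversibly, or vehicle. Chromatin was precipitated for RNA polymerase II (Pol II), LSD1, H3K27ac and the mono-, di- and trimethyl forms of H3K4, which gave 12 peak lists with 1 library per antibody and treatment. Input chromatin made up 4 further samples, which have no list and are not analysed here. With 1 library per group there was no spread between replicates and no test was possible. All intervals below cover counting error only, and neighbouring regions are not independent.

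H3K4me3 is laid down where transcription starts, and it is strongest over promoters rich in CpG dinucleotides. H3K4me1 marks enhancers and the flanks of promoters, H3K27ac marks active promoters and active enhancers, and Pol II collects where genes are transcribed. LSD1 demethylates the mono- and dimethyl forms of H3K4 but not the trimethyl form. An H3K4me3 peak far from a known start can therefore be a promoter missing from the annotation, or an enhancer with an unusual amount of trimethylation. The other 11 lists, the annotation and the DNA sequence of the 4009 regions were set against both pictures.

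A check of the cell type came first. All 7 markers of CD8+ T cells that were examined (Cd3e, Cd3d, Cd3g, Cd8a, Cd8b1, Cd2, Cd5) had an H3K4me3 peak within 1 kb of their start in both treatments. None of 6 markers of other cells (Cd79a and Ms4a1 of B cells, Cd4, and Csf1r, Lyz2 and Adgre1 of myeloid cells) had an H3K4me3 or Pol II peak there in either treatment. Among the CD8+ T cell markers, Pol II was called in Veh cells at Cd3e, Cd8b1 and Cd5 but not at Cd3d, Cd3g, Cd8a or Cd2. In GSK-treated cells it was missing at Cd8a and Cd2. Absence of Pol II alone thus does not set the cell types apart. Some of the strongest distal peaks had a peak in every list. Among the 10 with the highest −log10 p, 3 lay in satellite-like sequence at the start of chromosome 9, where 95.6 to 97.7% of the bases were masked as repeats. Another 3 of the 10 lay in a duplicated region of chromosome 8, among them chr8:20122212-20123084, which shared 82.7% of its 25-base words with other distal peaks. In all, 29 distal peaks had a peak in all 12 lists, and 162 (4.04%) were more than 50% repeat-masked. Without those 29 the shares of Veh H3K27ac, Pol II and LSD1 were 33.3%, 28.1% and 42.1%, beside 33.7%, 28.7% and 42.5% with them.

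Stretches of 6 distal peaks are printed from the reference genome, all on the plus strand of GRCm38, to show the kinds of sequence that H3K4me3 covered away from known starts. They were chosen after the values of the peaks were seen, as were the peaks named below at tRNA genes, receptor gene segments, microRNA genes, Firre and the Cd8 locus. The first 3 are CpG-rich and have every CpG in capitals, 22, 13 and 23 of them. They lie upstream of the let-7 microRNA cluster (chr13:48545619-48545918), downstream of Fos (chr12:85486265-85486564) and upstream of Trim71 (chr9:114583914-114584209, a whole peak of 296 bp).
let-7 upstream: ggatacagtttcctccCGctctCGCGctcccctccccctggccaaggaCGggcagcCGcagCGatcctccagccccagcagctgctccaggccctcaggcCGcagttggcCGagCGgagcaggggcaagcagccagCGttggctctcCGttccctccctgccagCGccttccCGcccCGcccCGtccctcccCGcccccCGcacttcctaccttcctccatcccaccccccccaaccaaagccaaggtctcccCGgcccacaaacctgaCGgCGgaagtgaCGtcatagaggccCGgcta
Fos downstream: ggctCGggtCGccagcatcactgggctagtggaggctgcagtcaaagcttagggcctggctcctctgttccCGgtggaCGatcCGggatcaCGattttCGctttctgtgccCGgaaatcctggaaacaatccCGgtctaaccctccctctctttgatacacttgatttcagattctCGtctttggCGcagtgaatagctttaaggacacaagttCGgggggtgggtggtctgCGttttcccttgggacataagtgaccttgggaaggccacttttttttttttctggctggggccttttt
Trim71 upstream: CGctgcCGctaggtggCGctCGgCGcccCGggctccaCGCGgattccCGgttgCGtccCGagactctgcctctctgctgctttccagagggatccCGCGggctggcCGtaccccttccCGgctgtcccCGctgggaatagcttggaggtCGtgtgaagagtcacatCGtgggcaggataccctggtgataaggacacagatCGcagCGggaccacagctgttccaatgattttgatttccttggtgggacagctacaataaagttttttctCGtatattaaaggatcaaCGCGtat

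The next pair shows the CpG-poor kind, with capitals over the RUNX motif TGTGGT or its reverse complement ACCACA. The stretch upstream of Lef1 (chr3:131019795-131020094) is centred on the motif and holds 7 CpGs. The stretch downstream of Cd8b1 (chr6:71342733-71343032) lies inside a RefSeq enhancer recorded as active in CD8+ T cells and holds 1 CpG.
Lef1 upstream: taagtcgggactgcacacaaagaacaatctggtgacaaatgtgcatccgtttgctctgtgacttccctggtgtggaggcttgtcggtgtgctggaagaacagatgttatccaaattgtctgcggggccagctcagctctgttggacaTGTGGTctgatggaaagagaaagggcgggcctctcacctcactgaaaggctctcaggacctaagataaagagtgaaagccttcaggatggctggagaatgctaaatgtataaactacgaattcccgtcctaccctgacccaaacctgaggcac
Cd8b1 downstream: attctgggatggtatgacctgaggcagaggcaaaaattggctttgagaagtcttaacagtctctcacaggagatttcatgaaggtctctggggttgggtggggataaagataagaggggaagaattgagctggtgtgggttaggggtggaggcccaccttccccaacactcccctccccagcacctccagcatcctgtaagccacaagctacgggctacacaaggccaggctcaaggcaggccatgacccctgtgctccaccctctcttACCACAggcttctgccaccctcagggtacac

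The last stretch is from a distal peak that covers a tRNA gene, n-TGtcc2 (chr1:171037883-171038182). The gene runs on the minus strand, and its 72 bases are in capitals.
tRNA-Gly: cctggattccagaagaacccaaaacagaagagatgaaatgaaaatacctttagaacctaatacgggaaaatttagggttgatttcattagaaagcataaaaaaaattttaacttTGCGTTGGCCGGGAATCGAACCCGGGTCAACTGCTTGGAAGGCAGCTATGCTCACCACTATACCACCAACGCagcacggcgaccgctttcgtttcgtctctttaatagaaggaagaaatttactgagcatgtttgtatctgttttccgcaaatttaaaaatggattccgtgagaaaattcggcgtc

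Distal H3K4me3 peaks were narrower and weaker than TSS-proximal ones. Their median width was 594 bp (quartiles 373 and 888 bp) against 1184 bp, their median fold enrichment over background 4.87 against 6.01, and their median −log10 p 11.6 against 73.0. When the whole Veh list was cut into 3 equal terciles by −log10 p, at 24.1 and 80.4, the weakest tercile held 3100 distal and 2160 proximal peaks, the middle one 823 and 4436, and the strongest 86 and 5174. The 3 distal peaks nearest to the 2500 bp limit lay 2510 bp from the start of AY761185, 2533 bp from En2 and 2539 bp from Igf2bp3, with folds of 3.82, 3.98 and 4.10. The 3 peaks nearest to it on the other side lay 2487 bp from Lcn4, 2486 bp from Chchd10 and 2485 bp from Gm5089, with folds of 4.46, 7.71 and 4.17.

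The centres of 2175 distal peaks (54.3%) were intergenic and those of 1545 (38.5%) were in introns, 540 of them (13.5% of all) in intron 1. Coding exons held 208 centres, 3′ UTRs 56, noncoding exons 19 and 5′ UTRs 6. For comparison, enhancers without H3K4me3 were built from H3K4me1 and H3K4me2 peaks of both treatments, merged into 47850 regions, leaving out those that overlapped H3K4me3 or lay within 2500 bp of a TSS. The 26676 enhancers were less often intergenic (45.5%) and more often intronic (50.6%), and 2.02% of their centres were in coding exons against 5.19% of distal H3K4me3 centres. The median distance to the nearest TSS was 20073 bp for distal H3K4me3 peaks and 22069 bp for enhancers. Few distal peaks adjoined a promoter peak: 3 lay within 1000 bp of a TSS-proximal H3K4me3 peak and 218 (5.44%) within 5000 bp. Downstream of the nearest start lay 2203 of them, and upstream 1806.

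The other lists divided the distal peaks from both reference sets. In Veh cells, H3K4me2 covered 60.8% of distal peaks (2439 of 4009; 70.5% of all Veh H3K4me3 peaks) and 73.8% of TSS-proximal peaks. H3K4me1 covered 48.4% (1939; 36.9% of all) and 33.1%, a difference of 15.3 percentage points (Newcombe 95% interval 13.5 to 17.1). For Pol II the shares were 28.7% (1149; 47.4% of all) and 53.8%, and for LSD1 42.5% (1704; 59.8% of all) and 65.7%. H3K27ac differed least, at 33.7% of distal peaks (1353; 36.5% of all) and 37.4% of proximal ones, a difference of −3.68 points (−5.37 to −1.96). H3K4me1 was thus the only one of these 5 marks in Veh cells found on a larger share of distal than of proximal peaks. The Pol II and LSD1 lists reach weaker peaks than the histone lists, so shares of different antibodies are not on a like scale.

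Enhancers without H3K4me3 had smaller shares than distal peaks in each of H3K27ac, Pol II and LSD1. H3K27ac was called on 3.35% of enhancers, Pol II on 1.49% and LSD1 on 17.5%, so the shares of distal H3K4me3 peaks were 30.4 points (28.9 to 31.9) higher for H3K27ac and 27.2 points (25.8 to 28.6) higher for Pol II. The Pol II share of distal peaks was thus about as far from that of enhancers as from that of proximal peaks (−25.2 points), while the H3K27ac share was close to that of proximal peaks. The H3K4me1 and H3K4me2 shares of the enhancers follow from how they were built and are not compared. Where a distal peak did carry a mark, the mark was of ordinary strength for its list. The median Pol II fold at distal peaks was 4.57 in Veh cells, beside 5.32 at proximal peaks and 3.89 in the whole Pol II list, and the median H3K27ac fold was 3.81 against 4.08 and 3.90.

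**Figure D1:**
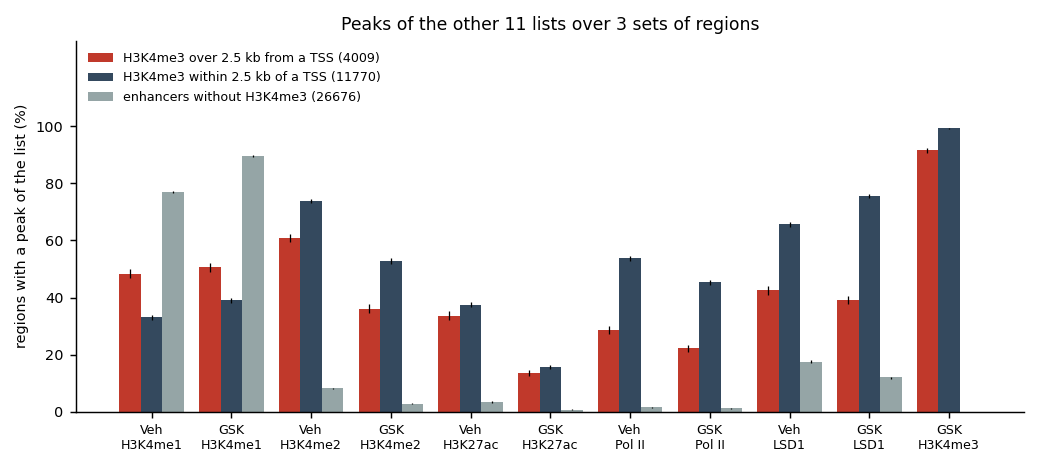
Share of regions (%, vertical axis) with a peak of each of the other 11 lists (horizontal axis) for distal H3K4me3 peaks, TSS-proximal H3K4me3 peaks and enhancers without H3K4me3, with 95% Wilson intervals as bars. Distal peaks lie between proximal peaks and enhancers for Pol II (28.7%, 53.8% and 1.49% in Veh cells) and LSD1 (42.5%, 65.7% and 17.5%), and near proximal peaks for H3K27ac (33.7% and 37.4%); the H3K4me1, H3K4me2 and H3K4me3 shares of enhancers follow from their definition.

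Weak promoters and weak distal peaks carried different marks once peaks of like H3K4me3 strength were compared. In the weakest tercile, H3K27ac was called on 31.7% of distal peaks (982 of 3100) but on 6.62% of proximal ones (143 of 2160). Pol II was called on 22.3% of the distal and 8.98% of the proximal peaks, so the order of the whole lists was turned around for both. H3K4me1 was also turned around, at 52.7% of distal and 69.2% of proximal peaks. Weak H3K4me3 peaks near known starts thus mostly had H3K4me1 and seldom acetylation. Weak distal peaks had H3K4me1 at 52.7% and acetylation at 31.7%. The acetylated share of distal peaks rose to 39.6% in the middle and 52.3% in the strongest tercile. In the middle tercile the Pol II shares were 48.2% and 51.2%, and in the strongest 70.9% (61 of 86; 60.6 to 79.5%) and 74.8%, with overlapping intervals. H3K27ac in the strongest tercile was at 52.3% of distal and 53.4% of proximal peaks. LSD1 was lower at distal peaks in the weakest (37.8% against 43.4%) and middle (56.6% against 69.5%) terciles and within the interval in the strongest (75.6%, 65.5 to 83.4%, against 71.8%). The terciles match peaks by rank class only, and distal peaks were narrower within a class, with a median width of 509 bp against 639 bp in the weakest.

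**Figure D2:**
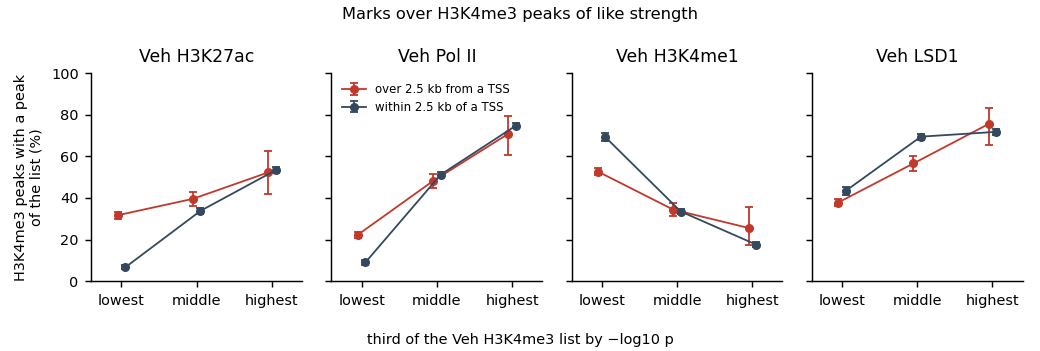
Share of H3K4me3 peaks (%, vertical axis) with a Veh H3K27ac, Pol II, H3K4me1 or LSD1 peak, by tercile of the Veh H3K4me3 list by −log10 p (horizontal axis), for distal and TSS-proximal peaks, with 95% Wilson intervals. In the weakest tercile H3K27ac was at 31.7% of distal and 6.62% of proximal peaks, whereas in the strongest the 2 lines meet at 52.3% and 53.4%.

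Combinations of marks in Veh cells were used to sort the 4009 regions. They join lists cut at different limits, Pol II less strictly than H3K4me1 and H3K27ac. The pattern of an active promoter, Pol II with H3K27ac and without H3K4me1, was found at 553 distal peaks (13.8%) and 27.9% of proximal peaks. All of Pol II, H3K27ac and H3K4me1 were found at 262 (6.54%), so that 815 in total (20.3%) had Pol II with H3K27ac. The pattern of an active enhancer, H3K4me1 and H3K27ac without Pol II, was found at 244 distal peaks (6.09%), against 0.952% of proximal peaks. Enhancers without H3K4me3 had the promoter pattern at 0.0337% and the enhancer pattern at 2.66%. Both shares follow in part from building these enhancers on H3K4me1 and H3K4me2 peaks and are not compared. H3K4me1 alone was the largest class with a mark, 1266 distal peaks (31.6%), while 294 (7.33%) had H3K27ac alone and Pol II without H3K27ac was found at 167 with and at 167 without H3K4me1. None of these 3 marks was called at 1056 (26.3%), of which 927 (87.8%) still had an H3K4me3 peak in GSK-treated cells.

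The other lists followed these classes. LSD1 was called in Veh cells at 54.2% of the 553 peaks with the promoter pattern, at 53.7% of the 244 with the enhancer pattern, at 42.3% of those with H3K4me1 alone and at 26.1% of those with none of the 3 marks. H3K4me2 covered 45.4% of the promoter-pattern peaks and 77.9% of the enhancer-pattern peaks. Pol II was called in GSK-treated cells at 73.8% of the promoter-pattern peaks and at 14.8% of the enhancer-pattern peaks. Among distal peaks with no annotated start nearby, the enhancer-pattern peaks with the highest −log10 p, chosen after their values were seen, were chr8:46686622-46687307 (H3K4me3 fold 9.77, H3K4me1 5.64, H3K27ac 7.62), which lay 52208 bp downstream of Gm16675, and chr1:180225850-180226573 (7.80, 4.07 and 3.69), downstream of Psen2.

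Part of the distal set was near starts that the curated annotation does not hold. Within 2500 bp of a start in the rest of RefSeq or in GENCODE M21 lay 1664 distal peaks (41.5%), and 806 (20.1%) contained such a start. Among enhancers the same shares were 23.6% and 6.28%. Each peak was then put in the first class it met, in the order tRNA gene (95 peaks), T cell or B cell receptor gene segment (37), predicted or alternative coding transcript (604), noncoding transcript (770), and pseudogene or small RNA (158), so a peak in an earlier class can also lie near a start of a later one. For 2345 (58.5%) no start of any kind was within 2500 bp. Peaks with a start inside were wider, at a median of 900 bp, than those without any start nearby, at 530 bp, and their median −log10 p was 23.9 against 10.3. A wider peak holds a start more easily, so the difference in width follows in part from the grouping.

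Several alternative starts belonged to T cell genes. The transcriptional repressor Bach2, which keeps T cells in a memory-like state, had 7 distal peaks nearest to it. The one at chr4:32238869-32240431 covered a GENCODE start of Bach2 itself 177004 bp upstream of the curated one. It was CpG-rich and had folds of 4.58 for H3K4me3, 3.67 for H3K27ac, 4.58 for Pol II and 5.29 for LSD1 in Veh cells, with 4.38, 4.66, 2.83 and 4.85 in GSK-treated cells. The peak at chr16:84702729-84704171 covered a GENCODE start of Mir155hg, the precursor of the activation-induced microRNA miR-155, 8852 bp upstream of the curated start, with Pol II folds of 6.40 in Veh and 6.93 in GSK-treated cells. Cd247, which encodes the CD3 zeta chain, had a predicted coding start inside chr1:165780228-165780685, where H3K4me2 was called in both treatments and Pol II in neither. Pol II was thus called at some of these alternative starts and not at others.

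Genes for tRNAs, which are transcribed by RNA polymerase III, made a group of their own. Of 403 tRNA genes, 90 lay with their start inside a distal peak, and 37 of the 95 tRNA-associated peaks were on chromosome 13. These 95 peaks were wide and strong for the distal set, with a median width of 978 bp and a median −log10 p of 29.8. LSD1 was called at 65.3% of them in Veh cells (62 of 95; 55.3 to 74.1%), above the 42.5% of all distal peaks. The interval holds the 56.6% of distal peaks in the middle H3K4me3 tercile, where their median −log10 p lies. H3K4me1 was at 18.9%, H3K27ac at 20.0% and Pol II at 22.1%. Over all distal peaks these shares were 48.4%, 33.7% and 28.7%, and in the middle tercile 34.4%, 39.6% and 48.2%. The peak over n-TGtcc2, printed above, had H3K4me3 folds of 7.10 and 7.13 in Veh and GSK-treated cells and a Veh LSD1 fold of 2.86, and no list of the other marks had a peak there. The peak beside n-TKctt14 (chr17:23546565-23547346), among the 10 highest distal peaks with a −log10 p of 169, had H3K27ac (3.72) and LSD1 (4.89) but no Pol II in Veh cells.

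Peaks at receptor gene segments had LSD1 less often, and they were weak, with a median −log10 p of 8.27. Of the 37 peaks at such segments, 20 were in the T cell receptor alpha locus and 13 in the beta locus, and 33 had an H3K4me3 peak in GSK-treated cells. LSD1 was called at 5 of them (13.5%; 5.91 to 28.0%) in Veh cells and at 8 (21.6%) in GSK-treated cells. Over all distal peaks of the weakest H3K4me3 tercile the Veh share was 37.8%. The strongest, chr6:41542834-41545895, spanned beta joining segments with folds of 2.71 for H3K4me3, 2.45 for H3K27ac and 2.69 for Pol II. OT1 cells carry a rearranged transgene beside these loci, and reads from the transgene and from the locus cannot be told apart here.

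Distal peaks also lay upstream of microRNA genes, many of which are annotated only by their hairpin and not by the start of the primary transcript. Within 25 kb upstream of 43 hairpins were 37 distal peaks, 35 of which (94.6%) had H3K4me3 in GSK-treated cells and 12 (32.4%) Pol II in Veh cells, near the 91.7% and 28.7% of all distal peaks. LSD1 was called at 13 (35.1%; 21.8 to 51.2%) in Veh and at 21 (56.8%; 40.9 to 71.3%) in GSK-treated cells, beside 42.5% and 39.1% of all distal peaks. Among them was the CpG-rich peak at chr13:48545035-48546502, 6763 bp upstream of Mirlet7a-1, whose miRNA opposes cell growth and stem-like states. Its folds in Veh cells were 6.34 for H3K4me3, 5.34 for H3K27ac, 6.04 for Pol II and 4.75 for LSD1, and no H3K4me1 or H3K4me2 was called. In GSK-treated cells they were 6.55, 7.27, 4.54 and 5.13, so the same 4 antibodies had a peak in both treatments. The peak at chr4:150048091-150049516 upstream of Mir34a, a target of p53, carried other marks, with H3K4me1 (4.14) and H3K4me2 (5.77) but neither H3K27ac, Pol II nor LSD1 in Veh cells. Upstream of Mir146, a brake on NF-kB signalling, the peak at chr11:43383967-43385563 had Pol II (3.75), H3K4me2 (3.66) and LSD1 (4.54) in Veh cells, and of these marks none in GSK-treated cells.

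In the stretch chr8:84183350-84204067, 5 distal peaks lay between the start regions of the Mir181c/Mir181d and Mir23a/Mir27a/Mir24-2 clusters. All 5 had H3K4me3 in GSK-treated cells, 3 had H3K27ac and Pol II in Veh cells, and none had Veh LSD1. In GSK-treated cells 4 had Pol II and 2 had LSD1. The longest run of distal peaks was at Firre, a long noncoding RNA gene on the X chromosome that holds repeated CTCF-bound units. There 11 peaks spread over chrX:50566644-50623368, each 208 to 420 bp wide. H3K4me3 was called again in GSK-treated cells at 9 of them and H3K27ac at 2 in Veh cells, but H3K4me1, H3K4me2 and LSD1 at none in either treatment and Pol II at 1 in GSK-treated cells. Up to 44.7% of the 25-base words of a Firre peak recurred in other distal peaks, so reads here may be hard to place.

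By CpG content the distal peaks lay between promoters and enhancers. The median ratio of observed to expected CpG was 0.380 in distal peaks, 0.713 in proximal peaks and 0.190 in enhancers, and the median GC contents were 51.6%, 59.0% and 47.7%. Peaks with over 50% GC and a ratio over 0.6 were called CpG-rich. These were 764 distal peaks (19.1%), 72.5% of proximal peaks and 1.30% of enhancers. The CpG-rich distal peaks were stronger (median −log10 p 20.3 against 10.6) and more often contained or adjoined an annotated start, yet 294 of them had none.

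CpG-rich distal peaks carried more H3K4 methylation and LSD1 and less acetylation than the other 3245. H3K4me2 covered 79.3% against 56.5% in Veh cells, H3K4me1 57.1% against 46.3%, and LSD1 59.8% against 38.4%. H3K27ac, in contrast, covered 14.1% (108 of 764) against 38.4%, a difference of −24.2 points (−27.1 to −21.1), and Pol II 22.1% against 30.2%. H3K4me1 alone was called at 49.3% of CpG-rich and 27.4% of other distal peaks. In the weakest tercile the H3K27ac shares were 3.04% (13 of 427) and 36.3% (969 of 2673), beside 1.62% of CpG-rich and 15.1% of other proximal peaks of that tercile. In the strongest tercile they were 50.0% and 55.9%, with wide intervals. The CpG-poor weak distal peaks thus held nearly all the acetylation of weak distal peaks, and held it more often than CpG-poor weak peaks near starts.

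**Figure D3:**
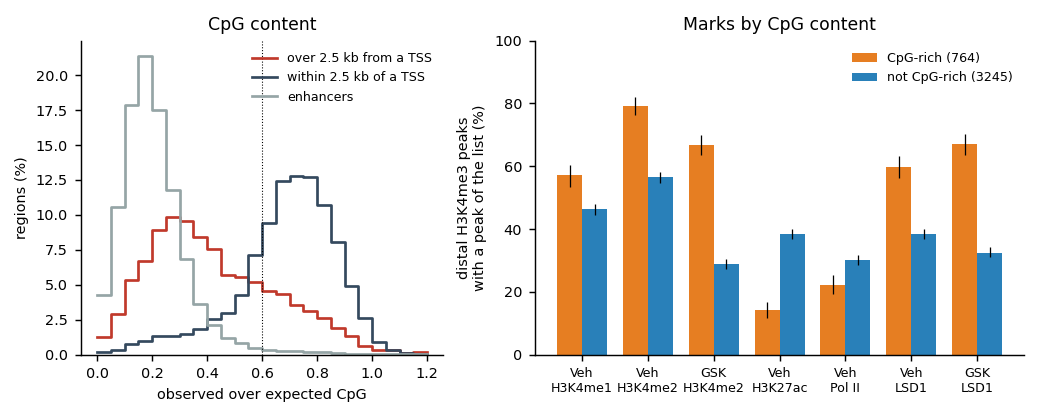
Left, share of regions (%) by ratio of observed to expected CpG for distal peaks, TSS-proximal peaks and enhancers, with the limit of 0.6 dotted. Right, share (%) of the 764 CpG-rich and 3245 other distal peaks with a peak of 7 lists, with 95% Wilson intervals; CpG-rich peaks were higher for H3K4me2 (79.3% against 56.5% in Veh cells) and LSD1 and lower for H3K27ac (14.1% against 38.4%).

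Short motifs were searched on both strands of the central 300 bp, and most were in a share of distal peaks between those of proximal peaks and enhancers. TGTGGT, the core of RUNX sites, was in 20.4% of distal peaks, 10.7% of proximal peaks and 32.3% of enhancers. AGGAAGT, an ETS site, was in 12.5%, 5.92% and 17.8%, and TGANTCA, an AP-1 site, in 8.41%, 3.70% and 14.2%. The GC box GGGCGG ran the other way, at 24.1%, 54.6% and 8.09%. Among CpG-rich distal peaks the shares were 9.16% for TGTGGT and 58.9% for GGGCGG, close to those of proximal peaks, and among the others 23.0% and 15.9%. The T-box site AGGTGTGA, at 1.27%, 0.603% and 2.23%, kept the same order. The E box CAGCTG did not, at 20.9% of distal peaks against 15.1% of proximal peaks and 17.4% of enhancers. Motif shares move with base composition, and a match is not a bound site.

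The GSK lists were read against their lengths. The GSK H3K4me3 list was longer than the Veh list (16887 against 15779 peaks) and held 4766 peaks over 2500 bp from a TSS (28.2%), of which 3685 (77.3%) overlapped a Veh H3K4me3 peak. Of the 4009 Veh distal peaks, 3677 (91.7%; 97.3% of all Veh H3K4me3 peaks) had H3K4me3 in GSK-treated cells, against 99.3% of proximal peaks. The 332 without it were all weak, with a median −log10 p of 6.53 and a highest of 16.4, against a median of 12.7 for the rest. In the middle and strongest terciles all 823 and 86 distal peaks had GSK H3K4me3. The highest of the 332 was the CpG-rich peak upstream of Trim71, printed above, where H3K4me2 (6.53) was called in Veh cells only and H3K4me1 in both treatments (3.92 and 4.73). The next was in intron 16 of Wwc2 (chr8:47852082-47852366, −log10 p 13.1). Intron 1 of Ccnd3, a cyclin of the G1 phase, held another (chr17:47511452-47511779, fold 3.86), where no other list had a peak.

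H3K4me1 was called in GSK-treated cells at 50.6% of distal peaks (2030; 42.0% of all Veh H3K4me3 peaks), close to the 48.4% in Veh cells. H3K4me2 was called at 36.1% (1448; 48.6% of all), H3K27ac at 13.4% (536; 15.0% of all), and Pol II at 22.2% (890; 39.5% of all). Each of these 3 was lower than in Veh cells, and the GSK lists of H3K4me2 and H3K27ac were also shorter, with 9437 against 15219 and 2751 against 7410 peaks. Both of these GSK libraries also had fewer unique reads than the Veh ones by the read numbers the study gives. The GSK Pol II library had more than the Veh one and the LSD1 libraries were nearly alike. The study also picked reads at random to even read numbers when comparing signals. Whether its peaks were called on such reads is not plain, so how depth bears on list length was not tested. With both lists cut to equal length by −log10 p, H3K27ac was at 13.1% of distal peaks in Veh and 13.4% in GSK-treated cells, and H3K4me2 at 39.1% and 36.1%. For Pol II, whose lists had similar lengths, equal length left 28.6% and 22.2%. For H3K4me1, whose GSK list was the longer, with 40272 against 34387 peaks, equal length gave 48.4% and 46.8%.

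LSD1 was called in GSK-treated cells at 39.1% of distal peaks (1568; 66.3% of all), 3.39 points below Veh cells, whereas at TSS-proximal peaks the share was 75.6%, 9.89 points above. At CpG-rich distal peaks it was also higher than in Veh cells, at 67.0% against 59.8%, and at the other distal peaks lower, at 32.5% against 38.4%. Of the distal peaks with Veh LSD1, 64.6% (1100 of 1704; 62.3 to 66.8%) also had GSK LSD1, against 89.0% of proximal peaks and 42.1% of enhancers. Among distal peaks this share was 84.2% for CpG-rich ones (385 of 457) and 57.3% for the others (715 of 1247), a difference of 26.9 points (22.4 to 31.0). The difference was 23.8, 25.3 and 24.5 points in the weakest, middle and strongest terciles of H3K4me3 and 26.1 points with LSD1 lists of equal length. Proximal peaks had the same order, at 92.7% for CpG-rich and 73.3% for other peaks. How depth and enrichment of each library bear on how often a peak is called again was not tested.

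**Figure D4:**
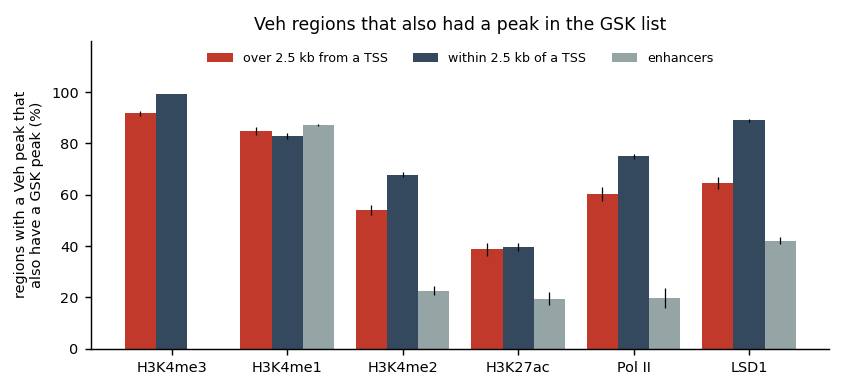
Of regions with a Veh peak of each antibody (horizontal axis), the share (%, vertical axis) that also had a GSK peak, for distal H3K4me3 peaks, TSS-proximal peaks and enhancers, with 95% Wilson intervals. LSD1 was called again at 64.6% of distal, 89.0% of proximal and 42.1% of enhancer regions, and H3K4me1 at 84.9%, 83.0% and 87.2%; enhancers have no H3K4me3 by definition.

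The distal peaks with the highest LSD1 had peaks of every antibody. The 5 highest with LSD1 in both treatments lay in intron 19 of Zc3h7a (chr16:11143919-11144313, folds of 23.0 and 26.6 in Veh and GSK-treated cells), the 3′ UTR of Lars2 (19.7 and 17.8), at the noncoding transcript Gm42418 (19.1 and 18.0), 284091 bp upstream of Pex2 (17.8 and 16.1) and in intron 8 of Apool (16.9 and 13.4). Each had a peak in all 12 lists, with Veh Pol II folds of 19.1 to 29.7. The Zc3h7a peak shared 57.1% and the Lars2 peak 33.7% of their 25-base words with other distal peaks, and with signal this high for every antibody these folds cannot be read as LSD1 alone. The 5 highest with LSD1 in Veh cells only had folds of 8.26 near Slc22a29, 8.22 near 1700016G22Rik, 8.06 in intron 4 of Emb, 7.79 near Pisd-ps2 and 7.61 in intron 1 of Anxa6. H3K27ac was called in Veh cells at the last 4 of these.

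Outside repeats and duplications, the strongest distal peaks lay at or near starts of the wider annotations. The peak at chr2:94178140-94178985, upstream of Hsd17b12, covered a GENCODE start of the noncoding transcript Mir670hg, with H3K4me3 folds of 10.5 and 11.1 and LSD1 folds of 6.81 and 4.84 in Veh and GSK-treated cells. No H3K27ac or Pol II was called there. In intron 2 of Thumpd1 (chr7:119719905-119720840) Pol II (3.48), H3K27ac (3.70) and LSD1 (4.05) were called in Veh cells, and in intron 2 of Baz2a (chr10:128096865-128097893) H3K27ac (3.40) was the only one of them. Of the CpG-rich peaks with no annotated start, the strongest, singled out after its values were seen, was chr17:6476257-6477411, 25263 bp upstream of Tmem181b-ps, with Veh folds of 7.65 for H3K4me3, 5.76 for Pol II, 5.41 for LSD1 and 3.77 for H3K4me1. Another, chr7:73617722-73619439, 59327 bp upstream of Chaserr, had 6.11 for H3K4me3, 4.96 for H3K27ac, 5.23 for Pol II and 3.77 for LSD1 and all 4 were also called in GSK-treated cells. These were not typical, since over the 294 CpG-rich peaks with no annotated start Veh Pol II was called at 62 (21.1%; 16.8 to 26.1%) and H3K27ac at 12.9%, below the 28.7% and 33.7% of all distal peaks.

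The widest distal peaks were low and flat. A peak of 4751 bp 164653 bp upstream of the curated Bach2 start (chr4:32248032-32252782) had an H3K4me3 fold of 2.49, with H3K4me1, H3K27ac, Pol II and LSD1 all called in Veh cells. The others were 3796 bp in intron 7 of Abcb9, 3697 bp upstream of Cd8a, 3453 bp at the tRNA gene n-THgtg8 near Hjv, and 3446 bp near Mir6417, with H3K4me3 folds of 2.47 to 3.23.

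The Cd8 locus, which encodes the coreceptor that defines these cells, had its distal H3K4me3 over known enhancers, but also at or near GENCODE noncoding starts. The peak at chr6:71341579-71343355, 18791 bp downstream of the Cd8b1 start, overlapped 2 RefSeq enhancers and lay 2044 bp from a start of Gm44110. Its Veh folds were 4.66 for H3K4me3, 2.81 for H3K4me2, 2.68 for H3K27ac, 3.96 for Pol II and 3.26 for LSD1, and in GSK-treated cells H3K4me3 (4.46) and Pol II (2.82) were called. The second peak, chr6:71352790-71356486, ended 16941 bp upstream of the Cd8a start inside 3 overlapping RefSeq enhancers recorded in T cells. A start of Gm44174 lay inside this second peak, so the annotation alone does not tell promoter from enhancer here. The second peak had Pol II in both treatments (3.14 and 3.78) and neither H3K27ac nor LSD1 in either. H3K4me1 was called at neither peak but at other places between Cd8b1 and Cd8a. Over the genome, distal peaks overlapped 43 of the 1015 enhancers recorded in RefSeq, most of them recorded in tissues such as heart and brain. They overlapped none of its 138 promoters, but the distance from curated starts by which they were chosen leaves little room for such an overlap. The share for enhancers without H3K4me3 was not taken, so these counts do not tell promoters from enhancers.

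**Figure D5:**
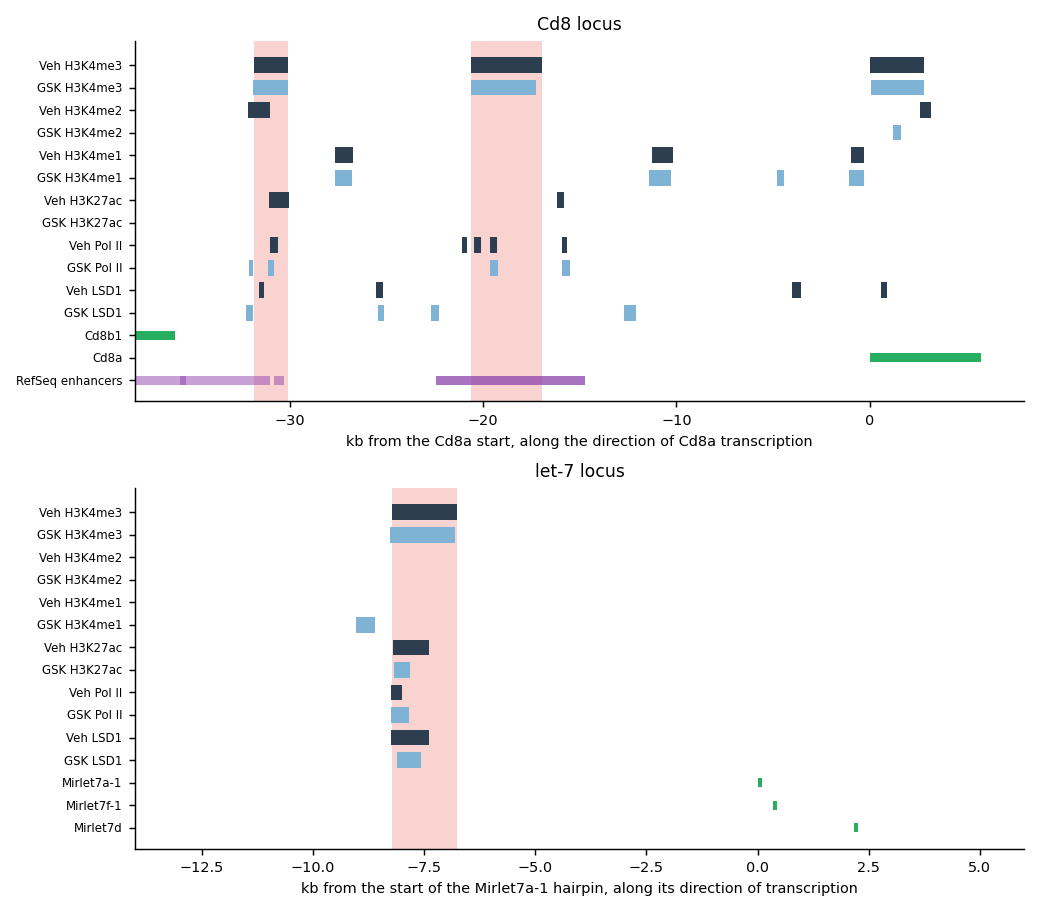
Peaks of all 12 lists (rows; Veh dark, GSK light) around Cd8b1 and Cd8a (above) and the let-7 cluster (below), by distance in kb from the start of Cd8a or of the Mirlet7a-1 hairpin, with genes in green, RefSeq enhancers in purple and distal Veh H3K4me3 peaks shaded. Both distal peaks of the Cd8 locus lie over RefSeq enhancers, and the distal peak of the let-7 locus holds H3K27ac, Pol II and LSD1 peaks of both treatments.

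Distal peaks were assigned to the gene that hosts them or has the nearest start. Of all 26180 genes with a curated start, expressed in T cells or not, 3423 (13.1%) had a distal peak by this rule, which is the background for the lists below. For the marks, the background is their share of all distal peaks in Veh cells. It was 48.4% for H3K4me1, 33.7% for H3K27ac, 28.7% for Pol II and 42.5% for LSD1. The lists hold genes of T cells with differing lengths and surroundings, and nothing particular to them is read from these counts. Of 44 T cell transcription factors, 28 had at least 1 of 61 distal peaks, and 44 of these 61 had no annotated start within 2500 bp. H3K4me1 was called in Veh cells at 25, H3K27ac at 18, Pol II at 12 and LSD1 at 21 of the 61. The strongest were at Fos, an immediate early gene and AP-1 subunit, Tcf12, an E protein, Prdm1, which drives terminal differentiation, and Stat3, which relays cytokine signals. The Fos peak (chr12:85485736-85487094, H3K4me3 fold 5.99) and the Prdm1 peak (chr10:44529178-44530125, 7.05) were CpG-rich, had H3K4me2 in both treatments and LSD1 only in GSK-treated cells (4.99 and 4.63), and had no H3K27ac or Pol II. The Tcf12 peak, 20826 bp upstream of its start (chr9:72132645-72133849), had a peak in all 12 lists, with Veh folds of 6.07 for H3K4me3, 3.85 for H3K27ac, 5.66 for Pol II and 5.88 for LSD1. In intron 1 of Stat3 (chr11:100931314-100932019) the GSK H3K4me3 list alone had a peak beside the Veh one, with folds of 8.20 and 8.16.

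Memory and progenitor genes had 26 distal peaks at 10 of 15 genes. In Veh cells 12 had H3K27ac and 11 Pol II, beside 33.7% and 28.7% of all distal peaks. Lef1, a factor of naive and memory T cells, had 5, the strongest 90163 bp upstream of its start (chr3:131019086-131020134; part of it is printed above). Its Veh folds were 6.49 for H3K4me3, 5.08 for H3K27ac, 8.24 for Pol II and 4.58 for LSD1, with 7.30, 5.47, 9.33 and 4.82 in GSK-treated cells and no H3K4me1 in either. No start of any annotation lay within 2500 bp of it. The strongest at Eomes, a T-box factor of memory cells, lay 9687 bp downstream (chr9:118487876-118489656), covered a GENCODE noncoding start, and had H3K4me1 (2.88), H3K4me2 (3.61) and LSD1 (3.74) without Pol II or H3K27ac.

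Signalling genes had 50 distal peaks at 26 of 41 genes. H3K27ac was called in Veh cells at 29 and Pol II at 9, beside 33.7% and 28.7% of all distal peaks. The peak 26709 bp upstream of Jak1, a kinase of cytokine receptors (chr4:101291991-101293409), had Veh folds of 5.64 for H3K4me3, 4.25 for H3K27ac, 6.62 for Pol II and 5.14 for LSD1. The other leading ones were at Vav1, Arhgef1 and Pik3r1, with H3K4me3 folds of 2.85, 2.63 and 4.39. Effector and cytokine genes had 10 at 5 of 18 genes. Of these, 5 were at Fasl, the death ligand of killer cells, and the strongest (chr1:161734644-161735568, 52927 bp downstream) had Veh folds of 5.77 for H3K4me3 and 6.06 for LSD1. At Gzmb, the granzyme that kills target cells, the peak at chr14:56275697-56276154 had Veh folds of 4.92 for H3K4me3, 3.46 for H3K27ac, 3.57 for Pol II and 7.11 for LSD1, and 58.7% of it was repeat-masked.

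Inhibitory and costimulatory receptors had 6 distal peaks at 6 of 18 genes, with H3K27ac at 4, LSD1 at 3 and Pol II at 0 in Veh cells. In GSK-treated cells LSD1 was called at 0 of the 6, against 39.1% of all distal peaks, but 6 peaks are too few to read a difference from. The 3 with Veh LSD1 were near Lag3 (chr6:124903737-124904224, H3K4me3 fold 9.11, LSD1 3.77 in Veh cells), near Tigit (LSD1 4.02) and in intron 3 of Havcr2 (LSD1 4.89), which encode receptors of activated and exhausted T cells. Cytokine and chemokine receptors had 16 at 11 of 23 genes, led by Il12rb1, Cxcr4 and 2 peaks at Il21r, of which the one 9459 bp upstream (chr7:125593451-125593970) had H3K27ac (4.38), Pol II (4.24) and LSD1 (4.22). The CD3 and coreceptor genes had 4 peaks at 3 of 18 genes, the Cd8 and Cd247 peaks, including a second Cd247 peak in intron 1. Hosts of microRNAs and noncoding RNAs had 12 at 7 of 16 genes, of which Mir29b-1 (chr6:31124619-31126569, in intron 3 of Lncpint), Mir155hg, Mir181a-1 and Mir146 had the strongest, all 4 with Pol II in Veh cells.

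A list of H3K4 methyltransferases, histone demethylases and related genes had 5 distal peaks at 5 of 22 genes. The peak in intron 6 of Setd1b, an H3K4 methyltransferase (chr5:123149926-123151670), had a peak in all 12 lists, with LSD1 folds of 7.31 and 6.18 in Veh and GSK-treated cells. In intron 12 of the demethylase gene Kdm2a (chr19:4332484-4333925) the folds in Veh cells were 6.09 for H3K4me3 and 5.46 for Pol II. Near Kdm5b, which encodes a demethylase of H3K4me3, LSD1 had folds of 7.18 and 4.78, and in intron 6 of Kdm2b 3.19 and 3.92. Of 19 markers of B cells and myeloid cells, 2 had a distal peak, Spib in a coding exon and Cd79a upstream, with H3K4me3 folds of 4.88 and 3.86. Both had H3K4me1 in Veh cells (4.30 and 3.49) and neither had H3K27ac. The Spib peak also had LSD1 (4.30) and the Cd79a peak Pol II (4.04), and 72.2% of the latter was repeat-masked.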

How the data were processed

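The authors aligned reads to mm10 with Bowtie2, kept uniquely mapped reads, discarded duplicates (Samtools), and ran MACS2 with input as the control and a stated p threshold of 0.001. The histone lists as given end at a −log10 q of 3.01 to 3.03. Those of LSD1 and Pol II end at a −log10 p of 3.00 or 3.01, with −log10 q down to 0.523, and so are less strict. The deposited lists hold, per peak, a fold enrichment over background (a ratio), the −log10 p and −log10 q, and a score the authors' caller wrote as 10 times the −log10 q for histone marks (broad peaks) or 10 times the −log10 p for LSD1 and Pol II (narrow peaks). The lists hold no read counts. To compare signals between libraries the authors also evened read numbers by random picking. The lists were made per library, and each group is 1 library, so no test was run.

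Distances were taken to curated RefSeq starts of GRCm38. A region had a mark where a peak of that list overlapped it by at least 1 bp, and the highest fold was taken. CpG content, motifs and repeat masking were read from the reference genome, and other starts from the rest of RefSeq and GENCODE M21. Shares have Wilson and differences Newcombe 95% intervals. Named peaks are those highest by −log10 p, width or LSD1 fold, the highest of each gene list, and those said to be chosen after their values were seen. The members and lists were chosen with earlier results of these data known. Python 3.11.15, numpy 2.4.6, pandas 2.3.3 and pysam 0.24.0 were used, and the overlap and distance code was tested on simulated data.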

Additional observations from a re-analysis of the deposited data

Results flagged for a closer look

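The LSD1 share moved in opposite directions between treatments in the 2 kinds of H3K4me3 peak, each taken as a whole. In GSK-treated against Veh-treated cells it was −3.39 percentage points at distal peaks and 9.89 points at TSS-proximal peaks. The fall was not shared by all distal peaks. From Veh to GSK-treated cells the share went from 59.8% to 67.0% at CpG-rich distal peaks and from 38.4% to 32.5% at the others. By H3K4me3 tercile it went from 37.8% to 33.7% in the weakest and from 56.6% to 55.7% in the middle, and was 75.6% in both treatments in the strongest. Each group is 1 library, and the difference between them was not tested.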

How the results depend on the processing

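Shares and counts moved with several settings, and the cause was not tested unless the setting itself removes peaks. With the starts of all annotated transcripts, 2344 distal peaks were left, with GSK H3K4me3 at 89.7%, and Veh H3K4me2 at 59.3%, H3K27ac at 36.8% and LSD1 at 40.5%. With a −log10 q of at least 5 for Veh H3K4me3, GSK H3K4me3 was at 97.1%, H3K4me2 at 63.5%, Pol II at 31.9% and LSD1 at 44.8%. With a −log10 p or q of at least 5 in the other list, GSK H3K4me3 was at 84.5%, H3K4me1 at 36.6%, H3K4me2 at 38.6%, H3K27ac at 24.5%, Pol II at 24.3% and LSD1 at 35.4%. With an overlap of at least 20% of the distal peak, H3K4me1 was at 42.6%, H3K4me2 at 58.5%, H3K27ac at 31.9%, Pol II at 23.8% and LSD1 at 37.5%. With lists of equal length, GSK H3K4me3 was at 84.8%, H3K4me2 at 39.1% and H3K27ac at 13.1%.

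Differences from TSS-proximal peaks, in percentage points, are given for the weakest, middle and strongest tercile of H3K4me3. They were −6.64, 0 and 0 for GSK H3K4me3 and −20.4, −3.46 and −2.90 for H3K4me2. For H3K4me1 they were −16.5, 0.888 and 7.99, reversed in the weakest. For H3K27ac they were 25.1, 5.80 and −1.06, reversed in the weakest and middle, and for Pol II 13.3, −3.00 and −3.89, reversed in the weakest. For LSD1 they were −5.59, −12.9 and 3.82, reversed in the strongest.

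In windows of 1000 bp at the peak centres, chosen after seeing the data, H3K4me1 was at 52.0% and LSD1 at 44.9% of distal peaks, and the differences were 24.1 for H3K4me1, −5.75 for H3K4me2, −21.3 for Pol II and −18.7 for LSD1. Starts counted only inside the peak gave 806, any base in an exon gave 595, and CpG content of the central 300 bp gave 21.4% CpG-rich. The H3K27ac difference by CpG content, with settings chosen after seeing the data, was −8.59 in the GSK list, −33.2 in the weakest and −5.88 in the strongest tercile. No paired analysis was possible because each antibody and treatment has 1 library, replicate numbers stand on inputs alone, and the results come from no test.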
